A study of Mus musculus with 6 samples.

Results

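Cell cycle and DNA replication genes were followed in liver messenger RNA from C57BL/6J mice that carry both copies of Ptprd (Ptprd+/+, here WT) or are heterozygous for it (Ptprd+/-, here Het). The members are 40 genes, taken as the rows of the deposited read count table whose gene name equals a listed symbol, out of 25904 genes in that table. All 40 were found. They were read in 3 groups by role, with 14 genes of replication and nucleotide supply, 10 genes that control G1 and entry into S phase, and 16 mitotic genes. There were 3 libraries per genotype, and the sources used here do not say how the Ptprd allele was altered, nor give sex, age or time of tissue collection. Nothing in the labels says whether 2 libraries could share a mouse, so p-values measure the spread between these libraries.

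Cells that prepare to divide pass through G1, copy their DNA in S phase and separate the copies in mitosis. Cyclin D with CDK4 or CDK6, then cyclin E with CDK2, phosphorylate the retinoblastoma protein and release E2F factors, which switch on the genes of the replication machinery. Mitotic genes come on later, largely through B-MYB and FOXM1, and in resting cells the DREAM complex holds both sets down through E2F and CHR promoter elements. Hepatocytes of an adult liver are mostly quiescent, many of them are polyploid, and they can re-enter the cycle after injury or loss of tissue.

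The promoters of many members show this division in their letters. The stretches that precede 6 start sites, all with matches to the motifs below, are printed first. Each is the 250 bases before the RefSeq start site (build GRCm38.p6), 5′ to 3′ on the strand of the gene. Capitals mark matches to an E2F motif (TTTNNCGC), a CHR element (TTTGAA) or a CCAAT box (CCAAT), each searched on both strands. Mcm5 and Mcm6 encode subunits of the replicative helicase and had the widest range between libraries of the MCM genes. Top2a, Ccnb2, Cdc20 and Cdk1 encode a topoisomerase that untangles chromosomes, cyclin B2, an activator of the anaphase-promoting complex and the mitotic kinase.
Mcm5, chr8:75109259-75109508, plus strand: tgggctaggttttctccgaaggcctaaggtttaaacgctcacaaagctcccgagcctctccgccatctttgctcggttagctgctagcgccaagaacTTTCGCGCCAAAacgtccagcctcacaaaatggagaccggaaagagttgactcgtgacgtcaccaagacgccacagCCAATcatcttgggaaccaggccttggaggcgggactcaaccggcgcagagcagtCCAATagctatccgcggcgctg
Mcm6, chr1:128359706-128359955, minus strand: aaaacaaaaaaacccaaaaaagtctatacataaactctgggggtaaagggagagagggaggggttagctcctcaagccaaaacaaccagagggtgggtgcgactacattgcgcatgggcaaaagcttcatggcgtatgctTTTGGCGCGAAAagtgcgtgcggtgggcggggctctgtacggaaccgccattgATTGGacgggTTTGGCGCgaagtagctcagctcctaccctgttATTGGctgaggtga
Top2a, chr11:99024190-99024439, minus strand: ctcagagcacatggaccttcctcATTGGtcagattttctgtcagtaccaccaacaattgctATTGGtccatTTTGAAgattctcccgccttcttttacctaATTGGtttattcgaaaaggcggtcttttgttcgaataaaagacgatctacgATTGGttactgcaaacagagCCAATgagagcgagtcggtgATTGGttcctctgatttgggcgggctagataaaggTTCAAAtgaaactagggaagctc
Ccnb2, chr9:70421555-70421804, minus strand: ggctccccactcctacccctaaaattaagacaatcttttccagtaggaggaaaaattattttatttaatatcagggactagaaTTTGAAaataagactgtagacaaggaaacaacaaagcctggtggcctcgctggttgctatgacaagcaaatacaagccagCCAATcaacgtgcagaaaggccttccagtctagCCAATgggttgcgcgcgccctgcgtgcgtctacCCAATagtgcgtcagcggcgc
Cdc20, chr4:118437344-118437593, minus strand: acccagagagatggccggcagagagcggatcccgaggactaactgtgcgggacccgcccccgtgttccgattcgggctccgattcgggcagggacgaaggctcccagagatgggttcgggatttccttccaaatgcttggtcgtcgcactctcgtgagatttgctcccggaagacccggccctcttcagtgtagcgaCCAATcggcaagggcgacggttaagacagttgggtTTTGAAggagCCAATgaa
Cdk1, chr10:69352913-69353162, minus strand: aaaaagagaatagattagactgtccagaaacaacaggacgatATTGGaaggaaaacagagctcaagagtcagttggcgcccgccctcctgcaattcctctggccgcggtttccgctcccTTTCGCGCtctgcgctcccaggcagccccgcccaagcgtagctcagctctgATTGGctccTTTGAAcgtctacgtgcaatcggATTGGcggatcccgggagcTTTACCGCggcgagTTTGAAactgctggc

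In the Mcm6 stretch 3 E2F matches begin at -110, -106 and -47 from the start, and the first pair overlaps. The Mcm5 stretch holds an overlapping pair at -153 and -149. A CHR match begins at -18 in Cdc20, -23 in Top2a and -15 in Cdk1, each with a CCAAT box upstream. In Ccnb2 the printed CHR match begins at -167, upstream of its CCAAT boxes, and another begins at 4, beyond the printed bases. Cdk1 is the mitotic member with E2F matches as well.

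Windows of 300 bases, which also hold the first 50 bases from the start on, were found for 30 of the 40 members. Those of Aurkb, Ccna2, Ccnd1, Ccnd2, Ccne2, Foxm1, Gins2, Kif20a, Mcm4 and Rb1 were not matched. An E2F match stood in 7 of 12 replication genes, in 2 of 6 genes of G1 and S phase entry and in 1 of 12 mitotic genes, against 5.17% of all 32851 windows. A CHR match stood in 1 of 12 replication genes (Mcm2) and 9 of 12 mitotic genes, against 17.9% of all windows. All 9 of those mitotic genes also held a CCAAT box, a combination found in 6.95% of all windows. No motif was matched in the windows of Ccne1, Cdk4, E2f1, Birc5 and Tk1. The plot of these shares sets the groups side by side.

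**Figure D1:**
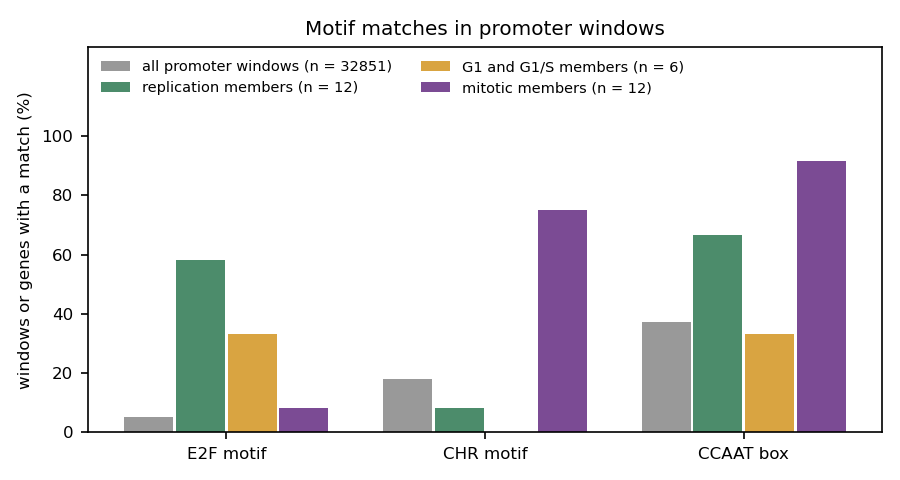
Share of promoter windows (%, vertical axis) with at least 1 match to each motif, for all 32851 windows and for the member genes of each group. E2F matches are most frequent among replication members (58.3%), and CHR matches among mitotic members (75.0%).

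Before the members were read, the labels were checked on Ptprd. It stood at 128, 127 and 132 CPM (counts scaled to a common library size, as in edgeR) in WT 1, WT 2 and WT 3, and at 54.1, 78.1 and 63.4 CPM in Het 1, Het 2 and Het 3, so the genotypes did not overlap and each library fitted its label. The log2 fold change was -0.99 (SE 0.14), with an adjusted p of 0.298 by edgeR and 2.006e-06 by DESeq2. Total counts per library ran from 37924266 to 72954187, the highest in Het 3. The 10 hepatocyte markers were detected in every library, with Alb highest. Het 2 and Het 3 differed from the other libraries in clock genes. Dbp, a clock output factor, had 129 and 122 CPM there and 13.5 to 29.6 CPM elsewhere, and Arntl, which encodes the clock activator BMAL1, had 2.41 and 1.92 CPM there and 11.8 to 21.4 CPM elsewhere. The part of the clock genes in the results on the members was not tested. Without Het 2 and Het 3, 6 members had a log2 fold change of the other sign, namely Ccne2, Cdc6, Ccna2, Mcm2, Gins2 and Tk1. Their values are given with each gene, and compare Het 1 alone with the 3 WT libraries. Het 1 was the highest library in 22.8% and the lowest in 24.3% of all tested genes, more often than any other library.

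A filter on low counts left 39 of the 40 members. Ccnb1, which encodes cyclin B1, was removed, with 2 to 30 reads per library and 55 in all. Levels between genes were compared as CPM per kilobase of exon. The highest of the members were Ccnd1 (cyclin D1) at 25.7, Tk1 (thymidine kinase) at 22.5, Cdk4 at 18.6 and Ccnd3 (cyclin D3) at 10.6 CPM per kilobase as means of 6 libraries. Replication genes had a median of 2.22 and the genes of G1 and S phase entry one of 1.48, with Ccne1 lowest of the latter at 0.435. Mitotic genes lay between 0.0643 for Ccnb1 and 0.685 for Ccnb2, with a median of 0.387. No mitotic member had more than 499 reads in a library, so counting error is larger for them.

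No member passed edgeR's quasi-likelihood test of Het against WT at an adjusted p under 0.05. Of all 14606 tested genes 0 passed (0%). The smallest adjusted p of a member was 0.649, for Ccne1. DESeq2 called 0 of the 39 members too (it gave no adjusted p for Cdc6, Plk1 and Bub1) and 66 genes in all (0.452%), and limma-voom called no gene. At an unadjusted p under 0.05, 4 members were higher in Het (10.3%, against 3.39% of all tested genes) and 1 was lower (2.56%, against 3.77%). The 4 were Ccne1, Birc5, Plk1 and Cdc20, and the lower one was Rb1. In 4 members (Tyms, Ccnd3, Ccne1 and Birc5) each Het library was above each WT library (10.3%, against 7.15% of all tested genes), and in Rb1 each was below (2.56%, against 6.72%). These shares describe the list, whose members are not independent of one another.

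As medians of the log2 fold change, Het over WT, the values were -0.06 for replication genes with 6 of 14 higher, 0.14 for the control genes with 7 of 10 higher, and 0.32 for mitotic genes with 13 of 15 tested members higher. Over all tested genes the median was 0.00 (-0.0039), with 49.2% higher. Without WT 2 the replication median was 0.23, and without Het 3 the mitotic median was -0.01. Between libraries of a genotype, group levels had a pooled SD of 0.271 for replication genes, 0.152 for control genes and 0.313 for mitotic genes. A difference between the groups was not tested. The plot of fitted fold changes shows the spread within each group.

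**Figure D2:**
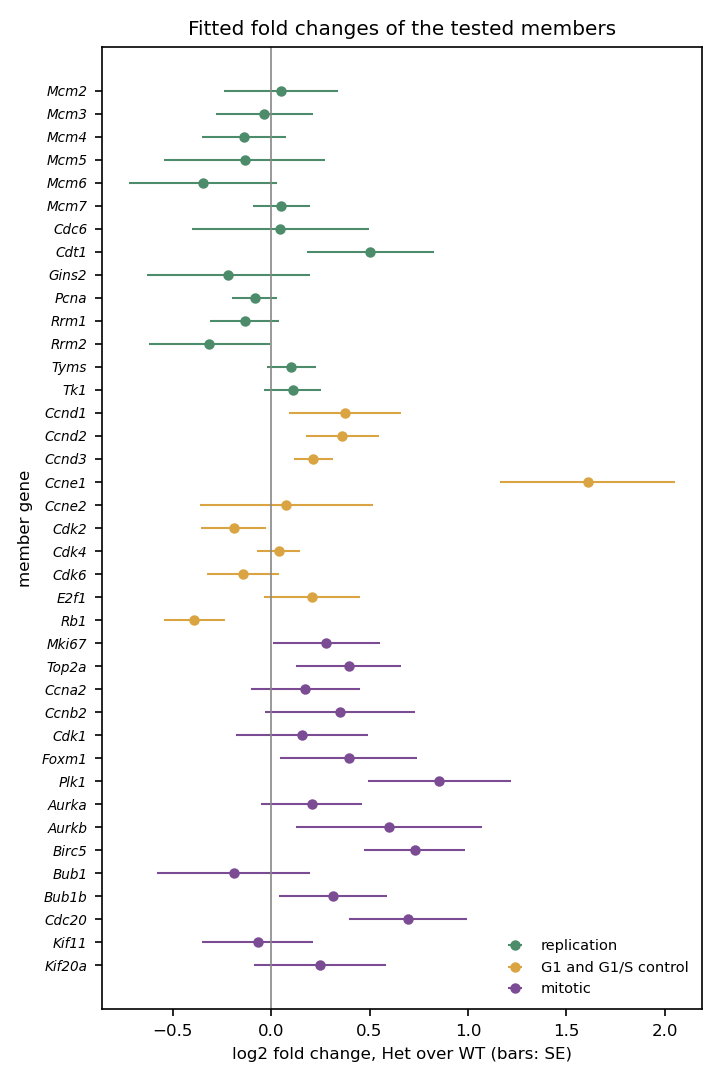
Log2 fold change, Het over WT (horizontal axis, points) with its standard error (bars), from edgeR for each tested member, 3 libraries per genotype. Replication genes lie on both sides of 0, most mitotic genes lie to the right, and Ccne1 lies farthest out at 1.61.

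As a group, replication genes were highest in WT 2 and next in Het 2. In bulk tissue, fewer cells of a type and less RNA per cell cannot be told apart. To give each library 1 level, log2 CPM was centred on the mean of each gene and the median taken over the group. That level was 0.415 in WT 2 and 0.203 in Het 2, and between -0.172 and -0.013 in the other 4 libraries. WT 2 was the highest library in 8 of 14 members, while it was highest in 14.3% of all tested genes.

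The MCM2 to MCM7 subunits form the ring helicase that is loaded on origins in G1 and unwinds DNA in S phase. Mcm5 (ENSMUSG00000005410) had 3.41, 9.92 and 3.85 CPM in WT against 4.47, 6.96 and 4.29 CPM in Het. Mcm6 had 6.29, 18.7 and 8.81 CPM in WT against 6.83, 11.2 and 8.63 CPM in Het. The means of Mcm5 were 5.73 ± 3.64 and 5.24 ± 1.49 CPM (SD, n = 3). In both genes WT 2 was highest and Het 2 second. The remaining libraries of the 2 genotypes overlapped in Mcm6, while in Mcm5 the remaining Het values lay above the remaining WT values.

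Mcm2 had 4.49, 7.81 and 3.91 CPM in WT against 4.75, 7.26 and 4.83 CPM in Het (log2 fold change 0.05, SE 0.29, and -0.19 without Het 2 and Het 3). Mcm3 ran from 6.38 CPM in WT 1 to 11.1 CPM in WT 2, and Mcm4 from 4.36 CPM in Het 1 to 7.81 CPM in WT 2. Mcm7, which shares 10.8% of its exon bases with Ap4m1 on the opposite strand, differed from the others. Its highest value was in Het 1 (13.3 CPM) and its lowest in WT 1 (9.83 CPM). WT 2 was thus highest in 5 of the 6 MCM genes. The log2 fold changes of the 6 genes lay between -0.35 and 0.05 (adjusted p between 0.852 and 0.983 by edgeR). Without WT 2 all 6 were higher in Het and the median of the 14 replication genes was 0.23, so the sign of these medians rested on that library.

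Loading of the helicase needs CDC6 and CDT1. Cdt1 had 1.41, 3.15 and 1.66 CPM in WT against 2.25, 3.11 and 3.46 CPM in Het, a log2 fold change of 0.50 (SE 0.32, edgeR adjusted p 0.746), the highest of the replication group. It was 0.95 without WT 2 and 0.29 without WT 1. Cdc6 had 7 to 37 reads per library, and its log2 fold change of 0.05 had an SE of 0.45 and was -1.02 without Het 2 and Het 3. Gins2, a subunit of the GINS complex that activates the helicase, had 1.66 CPM in WT 2 and 0.642 to 1.12 CPM elsewhere. It shares 70.7% of its exon bases with Gse1 on the opposite strand, and whether counting used the strand is not stated, so its level is uncertain. Its log2 fold change was -0.22 (SE 0.41), and 0.15 without Het 2 and Het 3.

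Pcna, the sliding clamp of the polymerases, was the steadiest member, with a ratio of 1.125 between its highest and lowest library. Tyms, thymidylate synthase, was nearly as steady, with 6.64, 6.68 and 6.16 CPM in WT against 7.05, 7.17 and 6.70 CPM in Het. All Het values lay above the WT values, but by RLE or upper-quartile scaling, with DESeq2, with a filter of 1 CPM in 3 libraries and without Het 1 they overlapped, and the log2 fold change was 0.10 (SE 0.12). Tk1 had 26.9 to 35.2 CPM in WT against 28.4 to 38.7 CPM in Het (log2 fold change 0.11, SE 0.15), and -0.13 without Het 2 and Het 3.

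Ribonucleotide reductase makes deoxynucleotides from 2 subunits. Rrm1, the large one, had 13.5, 18.7 and 12.8 CPM in WT against 11.5, 15.3 and 14.2 CPM in Het. Rrm2, the small one that is made in S phase, had 11.2, 6.12 and 7.36 CPM in WT against 3.95, 7.85 and 7.90 CPM in Het. Rrm2 thus had its highest value in WT 1, not WT 2, and its lowest in Het 1. Their log2 fold changes were -0.13 (SE 0.18) and -0.31 (SE 0.31).

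**Figure D3:**
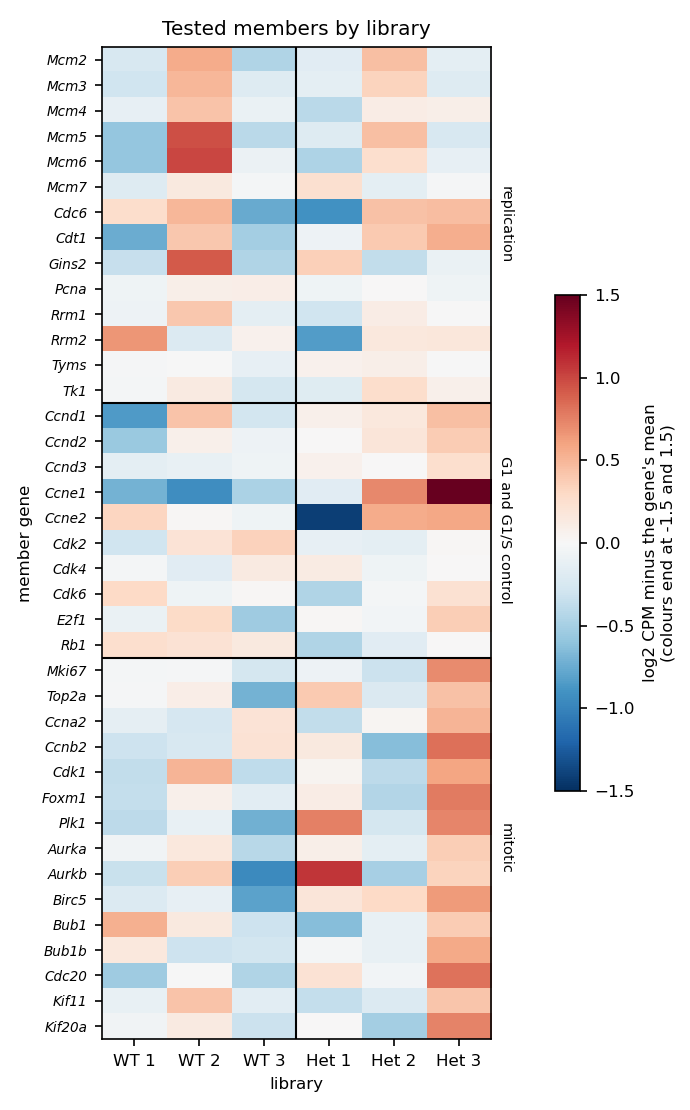
Log2 CPM of each tested member (rows, by group) in each library (columns) minus the mean of that gene over the 6 libraries, in colour. Red in WT 2 and Het 2 marks Mcm2 to Mcm6, and red in Het 3 marks most mitotic genes.

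Among the genes that control G1 and entry into S phase, Ccne1, which encodes cyclin E1, had the largest fold change of all members. Ccne1 (ENSMUSG00000002068) had 0.434, 0.371 and 0.509 CPM in WT against 0.631, 1.17 and 2.11 CPM in Het, from 19 to 20 and from 23 to 157 reads. The genotypes did not overlap, and Het 2 and Het 3 were the highest. The means were 0.438 ± 0.0688 and 1.30 ± 0.747 CPM (SD, n = 3), and the level was 3.05-fold higher in Het, a log2 fold change of 1.61 (SE 0.44), with an adjusted p of 0.649 by edgeR and 0.122 by DESeq2. Over the other alternatives its adjusted p ran up to 0.957, and the lowest was 0.0799. The log2 fold change was 1.06 without Het 3 and 0.53 without both Het 2 and Het 3, the libraries that stand apart in clock genes.

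Its partner gene Ccne2 (cyclin E2) had 2.11, 1.70 and 1.61 CPM in WT against 0.631, 2.47 and 2.52 CPM in Het. Het 1 was lowest and Het 2 and Het 3 highest, with WT between them. The log2 fold change was 0.08 (SE 0.44), and -1.51 without Het 2 and Het 3. Ccne2 shares 10.5% of its exon bases with Ints8 on the opposite strand. The cyclin E kinase gene Cdk2 had 12.7, 17.95 and 19.7 CPM in WT against 14.3, 14.1 and 15.7 CPM in Het, a log2 fold change of -0.19 (SE 0.17).

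The 3 D cyclins, which carry mitogen signals to CDK4 and CDK6, all had higher means in Het. Ccnd1 had 50.9, 124 and 76.0 CPM in WT against 96.7, 103 and 126 CPM in Het. The means were 83.5 ± 37.0 and 108 ± 15.2 CPM (SD, n = 3). Its log2 fold change was 0.38 (SE 0.28), 0.12 without WT 1 and 0.78 without WT 2, so either WT library moved it. Ccnd2 (cyclin D2) had 6.40, 9.91 and 8.91 CPM in WT against 9.46, 10.6 and 12.2 CPM in Het (log2 fold change 0.36, SE 0.18). In these 2 genes the genotypes overlapped at WT 2.

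Ccnd3 was the D cyclin whose genotypes did not overlap, with 23.4, 24.0 and 24.8 CPM in WT against 27.0, 26.0 and 30.7 CPM in Het. Its log2 fold change was 0.21 (SE 0.10). The edgeR adjusted p values of the 3 genes were between 0.698 and 0.775. Ccnd1 shares 21.9% and Ccnd3 14.8% of their exon bases with genes on the opposite strand.

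For the D cyclin kinases the genotypes overlapped. Cdk4 had 33.9 to 42.0 CPM in WT against 36.6 to 41.4 CPM in Het (log2 fold change 0.04, SE 0.11). Cdk6 had 21.3, 16.5 and 17.5 CPM in WT against 12.7, 16.9 and 20.3 CPM in Het (log2 fold change -0.14, SE 0.18). For Cdk4, 31.2% of exon bases are shared with Tspan31 on the opposite strand.

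Rb1, which encodes the retinoblastoma protein that binds and silences E2F factors, was the member with all Het libraries below all WT libraries. Rb1 (ENSMUSG00000022105, chromosome 14) had 7.45, 7.29 and 6.93 CPM in WT against 4.58, 5.58 and 6.31 CPM in Het. The means were 7.22 ± 0.262 and 5.49 ± 0.867 CPM (SD, n = 3), and the level was 1.31-fold lower in Het, a log2 fold change of -0.39 (SE 0.15), with an adjusted p of 0.694 by edgeR and 0.593 by DESeq2. With 1 library left out it lay between -0.51 and -0.29. E2f1, an activator of replication genes, had 2.65, 3.46 and 1.95 CPM in WT against 2.88, 2.75 and 3.68 CPM in Het, which overlap (log2 fold change 0.21, SE 0.24). It was 0.03 without WT 3, 0.06 without Het 3 and 0.44 without WT 2.

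Mitotic genes were highest in Het 3. Their level was 0.578 in Het 3, against 0.090 in Het 1, -0.218 in Het 2 and -0.310 to 0.065 in WT. Het 3 was the highest library in 11 of the 15 tested members, and it was highest in 16.7% of all tested genes. Without Het 3 the median log2 fold change was -0.01 and 7 of 15 members were higher, so the direction of the group rested on that library, the most deeply sequenced of the 6. The genes of G1 and S phase entry were highest in Het 3 too, with a level of 0.308 against -0.120 to 0.042 elsewhere. Het 3 was the highest library in 6 of those 10 genes.

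Mki67, the proliferation marker Ki-67 that coats mitotic chromosomes, had 4.02, 4.02 and 3.40 CPM in WT against 3.87, 3.26 and 6.70 CPM in Het. Top2a had 3.02, 3.28 and 1.87 CPM in WT against 4.005, 2.62 and 4.15 CPM in Het. In Mki67 Het 3 alone stood out, and in Top2a Het 1 and Het 3 lay above all others. Their log2 fold changes were 0.28 (SE 0.27) and 0.39 (SE 0.27). That of Mki67 was -0.10 without Het 3, and that of Top2a was 0.19 without WT 3.

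Cyclin genes and the mitotic kinase followed the same library. Ccnb2 had 0.803, 0.840 and 1.15 CPM in WT against 1.10, 0.639 and 1.76 CPM in Het. Ccna2 (cyclin A2) had 1.25 to 1.71 CPM in WT against 1.15 to 2.12 CPM in Het (log2 fold change 0.17, SE 0.28, and -0.31 without Het 2 and Het 3). For Ccna2, 10.4% of exon bases are shared with Exosc9 on the opposite strand. Cdk1 had 1.63, 2.99 and 1.61 CPM in WT against 2.17, 1.60 and 3.15 CPM in Het, so WT 2 came close to Het 3. The untested Ccnb1 had its most reads in Het 3 as well, 30 against 2 to 10 elsewhere.

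Foxm1 encodes a transcription factor of mitotic genes and had 0.651, 0.879 and 0.750 CPM in WT against 0.905, 0.617 and 1.44 CPM in Het. Plk1, a kinase of spindle assembly and mitotic entry, had 0.369, 0.449 and 0.294 CPM in WT against 0.823, 0.404 and 0.805 CPM in Het. It had a log2 fold change of 0.85 (SE 0.36, edgeR adjusted p 0.694) from 11 to 60 reads per library, and Het 2 lay within the WT range. Aurkb, the kinase of the chromosomal passenger complex, had 1.21, 0.404 and 0.725 CPM in Het against 0.294 to 0.742 CPM in WT. Only Het 1 thus lay outside the WT range (log2 fold change 0.60, SE 0.47). Aurka, a kinase of the spindle poles, ran from 0.830 CPM in WT 3 to 1.42 CPM in Het 3.

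Birc5 encodes survivin, a subunit of the same passenger complex, and was the mitotic member whose genotypes did not overlap. Birc5 (ENSMUSG00000017716, chromosome 11) had 1.22, 1.29 and 0.803 CPM in WT against 1.59, 1.72 and 2.17 CPM in Het. The means were 1.10 ± 0.262 and 1.83 ± 0.305 CPM (SD, n = 3). The log2 fold change was 0.73 (SE 0.26), with an edgeR adjusted p of 0.685 and a range of 0.55 to 0.86 with 1 library left out. It was thus higher in every Het library than in any WT library.

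Of the genes around the spindle checkpoint, Cdc20 had 0.781, 1.13 and 0.830 CPM in WT against 1.32, 1.11 and 2.00 CPM in Het (log2 fold change 0.70, SE 0.30, edgeR adjusted p 0.694), and 0.40 without Het 3. Bub1b, the BUBR1 kinase of the checkpoint, was 1.02 to 1.41 CPM in WT against 1.17 to 1.88 CPM in Het. Bub1, a kinase of the kinetochore, had 7 to 29 reads per library and a log2 fold change of -0.19 (SE 0.39).

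Both kinesin motor genes overlapped between genotypes. Kif11, which pushes spindle poles apart, had 1.52, 2.21 and 1.47 CPM in WT against 1.29, 1.43 and 2.20 CPM in Het (log2 fold change -0.07, SE 0.28). Kif20a, a motor of cytokinesis, had 1.32, 1.504 and 1.10 CPM in WT against 1.37, 0.958 and 2.29 CPM in Het (log2 fold change 0.25, SE 0.34). For Kif20a, 31.8% of exon bases are shared with Cdc23 on the opposite strand.

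**Figure D4:**
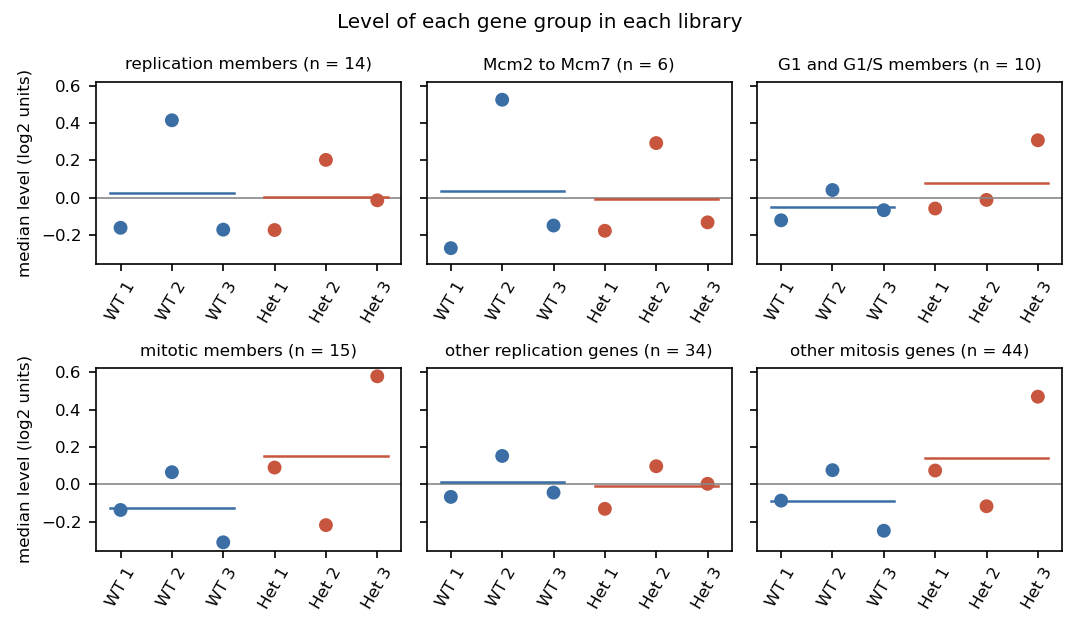
Level of each gene group (vertical axis, median over tested genes of log2 CPM minus the mean of the gene) in each library, with lines at the mean of each genotype. WT 2 and Het 2 lead for the replication groups, and Het 3 leads for the mitotic groups (0.578 and 0.469).

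Genes of the pathway outside the members were read next. Of 44 other mitosis genes, all tested, 37 had a positive log2 fold change and the median was 0.25. At an unadjusted p under 0.05, 2 were higher (4.55%, against 3.39% of all tested genes) and 1 lower (2.27%, against 3.77%), and 0 passed adjusted. Het 3 was the highest library in 26 of them, and without Het 3 the number higher in Het was 27. Their level was 0.469 in Het 3 and -0.248 in WT 3. Espl1, the separase that cuts cohesin, had 0.369, 0.371 and 0.214 CPM in WT against 0.658, 0.511 and 0.859 CPM in Het. Cks1b, a CDK binding subunit, was 2.496 to 2.84 CPM in WT against 3.35 to 4.603 CPM in Het. Ect2, the exchange factor of cytokinesis, had the opposite order, at 1.89, 2.62 and 2.17 CPM in WT against 0.987, 1.23 and 1.48 CPM in Het.

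Of 35 other genes of origins and the replication fork, 34 were tested, and 15 of these had a positive log2 fold change (median -0.02). WT 2 was the highest library in 16. At an unadjusted p under 0.05, 2 were higher (5.88%, against 3.39% of all tested genes) and 0 lower (0%, against 3.77%). Pold2, a subunit of DNA polymerase delta, had 11.4, 11.3 and 10.9 CPM in WT against 15.8, 13.8 and 14.1 CPM in Het (log2 fold change 0.38, SE 0.11). Mcm10, an initiation factor outside the MCM2 to MCM7 ring, had 17.6, 27.8 and 36.6 CPM in WT against 32.6, 49.9 and 49.0 CPM in Het, so its order of libraries was not that of the ring subunits. Pold1, the catalytic subunit, had a log2 fold change of 0.29 (SE 0.14).

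Among 11 tested genes of nucleotide supply outside the members, 5 were higher. Of these 11, at an unadjusted p under 0.05, 0 were lower (0%, against 3.77% of all tested genes) and 1 was higher (9.09%, against 3.39%). This was Cad, the enzyme that starts pyrimidine synthesis, with 10.6, 14.4 and 12.9 CPM in WT against 18.7, 17.6 and 18.7 CPM in Het (log2 fold change 0.54, SE 0.13, edgeR adjusted p 0.617). Dck, deoxycytidine kinase, and Shmt1, a serine hydroxymethyltransferase, had log2 fold changes of -0.43 (SE 0.24) and -0.19 (SE 0.11).

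The E2F, pocket protein and DREAM genes had 7 of 16 members higher, around a median log2 fold change of -0.04. Only E2f2 passed an unadjusted p under 0.05, higher in Het (6.25%, against 3.39% of all tested genes). E2f2, an activating E2F, had 1.11, 1.21 and 0.883 CPM in WT against 1.29, 1.40 and 2.51 CPM in Het, E2f3 a log2 fold change of -0.32 (SE 0.19) and Lin37, a DREAM subunit, of 0.22 (SE 0.17). Checkpoint and damage response genes had 9 of 17 tested genes higher and a median of 0.01. Here only Atr passed an unadjusted p under 0.05, lower in Het (5.88%, against 3.77% of all tested genes). Atr, the kinase that answers stalled forks, had 15.8, 17.9 and 15.7 CPM in WT against 9.11, 15.0 and 12.3 CPM in Het. Ccng2 (cyclin G2) and Mdm2 (the p53 ligase) had log2 fold changes of -0.55 (SE 0.25) and -0.14 (SE 0.12). Of 10 other cyclin and CDK genes tested 1 was higher, Cdk5, at 0.16 (SE 0.10), while Ccnh and Ccnl1 had -0.28 (SE 0.13) and -0.12 (SE 0.08).

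CDK inhibitors had 2 of 8 members higher (median log2 fold change -0.02), with Cdkn3 at 0.80 (SE 0.52), Cdkn2d at 0.20 (SE 0.20) and Cdkn1c at -0.19 (SE 0.24). Cdkn1a, which encodes the inhibitor p21, and Wee1, which encodes a kinase that restrains CDK1, were chosen after their values were seen. Cdkn1a had 33.5, 5.57 and 24.8 CPM in WT against 33.4, 4.79 and 3.09 CPM in Het. It was low in WT 2, Het 2 and Het 3, and its genotypes overlapped (log2 fold change -0.65, SE 0.91). Wee1 had 15.2, 16.5 and 11.8 CPM in WT against 5.43, 23.1 and 22.1 CPM in Het, and followed Dbp in being highest in Het 2 and Het 3. The part of the clock genes in these values was not tested.

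**Figure D5:**
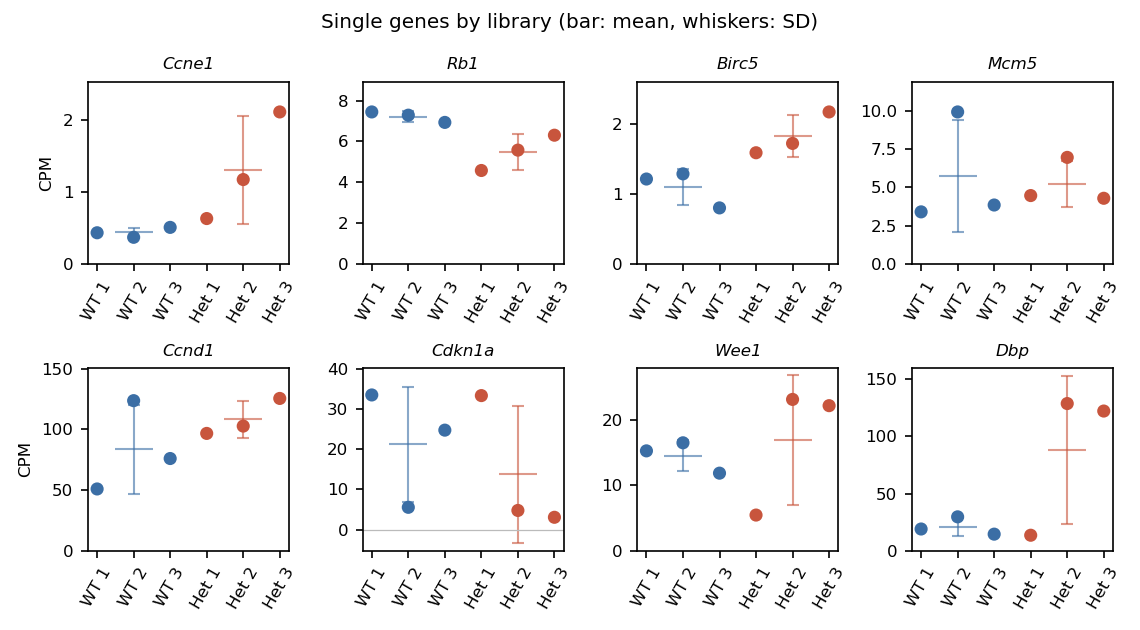
CPM (vertical axis, linear) of 8 genes in each library, as points, with the mean and SD of each genotype (n = 3). Ccne1, Rb1 and Birc5 do not overlap between genotypes, Mcm5 is highest in WT 2, and Cdkn1a is low in WT 2, Het 2 and Het 3.

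Markers of cells other than hepatocytes were summed per library. The 12 lymphocyte markers, all detected in every library, summed to 30.5, 26.8 and 23.5 CPM in WT and to 20.7, 14.6 and 21.4 CPM in Het. These sums did not overlap, but Ptprc was their largest part, with 18.7, 13.3 and 9.74 CPM in WT against 8.61, 6.77 and 11.5 CPM in Het. Centred like the gene groups, the lymphocyte level overlapped between genotypes, at -0.063, 0.376 and 0.008 in WT against 0.067, -0.516 and 0.048 in Het. Of the 12 markers, 4 had a positive log2 fold change. At an unadjusted p under 0.05, 3 of these markers had a lower level in Het (25%, against 3.77% of all tested genes). The 11 myeloid markers summed to 592 CPM in Het 3 and 349 to 770 CPM elsewhere. The 7 erythroid markers in the table summed to 165.5 CPM in Het 3, and to 269.6 CPM in WT 3, where the level of mitotic genes was lowest. In Het 1, 1 of the erythroid markers had no read. The 8 endothelial markers were highest in Het 3 at 396 CPM, against 299 to 380 CPM elsewhere. The 8 stellate markers summed to 264 to 339 CPM and the 6 cholangiocyte markers, mostly Spp1, to 45.4 to 62.4 CPM. Centred in the same way, the cholangiocyte level was highest in Het 3 at 0.386, where 3 of the 6 markers and most mitotic genes had their highest value. It was nearly as high in WT 3, at 0.329, where the level of mitotic genes was lowest at -0.310. Parts of these cell types in the marker sums were not measured apart. The part of these cell types in the levels of the members was not tested.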

How the data were processed

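The authors deposited a table of raw read counts per Ensembl gene, with 1 column for each of the 6 libraries. Genome build mm10, HTSeq 0.6.1p1, STAR 2.5.3a, DESeq2 1.16.1, cutadapt 1.10 and bcl2fastq 2.17.1.14 are named in the submitters' processing notes, without roles. Libraries were strand-specific and poly(A)-selected, per the labels' protocols, but the sources used here do not give the annotation release or the strand setting of the counting. The table's 12 other per-sample columns were not used, nor was the authors' table of differential expression, whose decimal commas and separators left its values uncheckable.

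Counts were filtered with filterByExpr (14606 of 25904 genes kept) and scaled by TMM. Het was compared with WT over all tested genes by edgeR 4.0.16 (R 4.3.3, quasi-likelihood test, two-sided) with Benjamini-Hochberg adjustment at 0.05. CPM are per effective library size, and levels use log2 CPM with a prior count of 2. Standard errors are the absolute log2 fold change divided by the square root of the F statistic of edgeR's test. That statistic draws on the variation of all tested genes, not of each gene alone. SDs cover the spread between 3 libraries per genotype. An exact permutation test of 3 against 3 cannot give a two-sided p under 0.1. Exon lengths and overlaps are from GENCODE M21 (GRCm38, the build of mm10), with the same gene ends as the deposited table for 39 of 40 members. Promoters are from RefSeq (GRCm38.p6). Scripts were tested on simulated counts.

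Members and gene lists were chosen with earlier results of these data known. The text names all members, and of each other pathway list the 3 tested genes with the smallest unadjusted p. Alternatives were DESeq2 1.42.0, limma-voom (limma 3.58.1), 2 other scalings, 2 other filters, the replicate number as a block, each library left out, and Het 2 and Het 3 left out together. Counts of genes with a positive log2 fold change were recomputed under each of these, which was chosen after seeing the data.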

Additional observations from a re-analysis of the deposited data

How the results depend on the processing

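No member passed an adjusted p of 0.05 under any of the 14 alternatives, and the smallest was 0.0799. Over all genes the number called was 66 with DESeq2, 73 with no filter on low counts, 0 to 1 with 1 library left out and 0 in the others. The number of members whose genotypes did not overlap was 3 with a filter of 1 CPM in 3 libraries (14.8% of all genes tested there), 5 to 14 with 1 library left out (21.1% to 28% of all genes) and 20 with both Het 2 and Het 3 left out, where 63.9% of all tested genes did not overlap. With 1 library left out the median log2 fold change of replication genes lay between -0.181 and 0.228 and that of mitotic genes between -0.010 and 0.503. With fewer libraries, overlap is rarer by construction. The filter of 1 CPM in 3 libraries kept 32 of the 39 members. Ccne1, with more than 1 CPM in Het 2 and Het 3 only, was not among them. Otherwise the cause was not tested. Libraries with the same replicate number had correlations of -0.068, 0.116 and 0.152 of their deviations, so the numbers were not taken to pair them. The replicate block called 0 genes and gave medians of -0.006 for replication and 0.243 for mitotic genes.

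Of the 39 members 21 changed sign in some alternative. With 1 library left out the log2 fold changes ranged from -0.508 to 0.031 for Bub1, -0.099 to 0.345 for Ccna2, -0.107 to 0.646 for Ccnb2, -0.198 to 0.462 for Ccne2, -0.220 to 0.324 for Cdc6, -0.152 to 0.527 for Cdk1, -0.029 to 0.122 for Cdk4, -0.315 to 0.012 for Cdk6, -0.010 to 0.643 for Foxm1, -0.445 to 0.380 for Gins2, -0.354 to 0.152 for Kif11 and -0.180 to 0.503 for Kif20a. They ranged from -0.177 to 0.422 for Mcm2, -0.222 to 0.269 for Mcm3, -0.239 to 0.075 for Mcm4, -0.404 to 0.535 for Mcm5, -0.634 to 0.243 for Mcm6, -0.067 to 0.146 for Mcm7, -0.102 to 0.484 for Mki67, -0.234 to 0.063 for Rrm1 and 0.000 to 0.213 for Tk1. Ccne2 was -0.055 with limma-voom and -0.070 with the replicate block. With both Het 2 and Het 3 left out, values of the other sign were -1.511 for Ccne2, -0.311 for Ccna2, -0.193 for Mcm2, -1.018 for Cdc6, 0.153 for Gins2 and -0.134 for Tk1.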
